A study of Mus musculus with 12 samples.

Results

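The Eya and Six-family genes of mouse were described in bone marrow libraries of MLL-ENL leukemia and of normal progenitors. They were taken by name, 4 Eya genes (Eya1, Eya2, Eya3 and Eya4) and 4 Six-family genes (Six2, Six3, Six4 and Six5), which makes 8 of the 24028 genes in the deposited count tables. RNA was sequenced from 12 libraries of C57BL/6 bone marrow cells, 3 in each of 4 groups. The iMLL-ENL total group held leukemic cells of unsorted marrow. The B220 HIGH and B220 LOW groups held leukemic cells that were sorted for a high or a low level of the surface antigen B220. All leukemic groups came from mice with a doxycycline-inducible MLL-ENL knock-in that were given doxycycline until acute leukemia developed. The wt LSK group, normal stem and progenitor cells, was sorted by c-kit and Sca-1 after lineage depletion of marrow from wild type control mice. The labels give 3 animals per genotype, neither the age of the mice nor the promoter that drives the fusion, and they do not tie a library to an animal. P-values therefore measure the spread between libraries, and leukemic libraries of different groups may come from the same animals.

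Eya proteins are transcriptional coactivators with a conserved phosphatase domain that do not bind DNA by themselves. Six-family proteins are homeodomain transcription factors that recruit Eya proteins to their target genes. Dach proteins are corepressors in the same complexes, and Pax genes act upstream of or beside them, an order first worked out in the eye of Drosophila. MLL-ENL joins the DNA-binding part of the histone methyltransferase encoded by Kmt2a to ENL, a protein of transcription elongation complexes, and Eya1 is a known target of MLL fusions in mouse models.

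Of the 8 genes, Six2, Six3 and Eya4 were silent or nearly so, apart from 1 library for Eya4, and 4 of the other 5 took a different level in leukemic cells or differed widely between leukemic libraries. Eya2 and Six5, which were expressed in every wt LSK library, fell in iMLL-ENL total. Six4, which had at most 5 counts in a wt LSK library, rose, to very unequal levels. Eya1 was even in wt LSK and ranged from a trace to more than the wt LSK level among leukemic libraries. Eya3 was expressed in all 12 libraries, at 34.8 to 87.3 CPM.

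Promoter sequences of Six4, Six5 and Eya3 are shown because these genes gained, lost and kept expression in the leukemic libraries. RefSeq promoters on GRCm38.p6, from 250 bases before to 50 bases after a gene's start, were matched for 6 of the 8 genes, all but Eya1 and Eya2. Capitals mark CG dinucleotides, the sequence bound by the CXXC domain of MLL when it is unmethylated. The first is the more downstream of the Six4 starts, on the minus strand at chr12:73113196-73113495. The second is Six5, on the plus strand at chr7:19094294-19094593, and the third is Eya3, on the plus strand at chr4:132638796-132639095.
Six4: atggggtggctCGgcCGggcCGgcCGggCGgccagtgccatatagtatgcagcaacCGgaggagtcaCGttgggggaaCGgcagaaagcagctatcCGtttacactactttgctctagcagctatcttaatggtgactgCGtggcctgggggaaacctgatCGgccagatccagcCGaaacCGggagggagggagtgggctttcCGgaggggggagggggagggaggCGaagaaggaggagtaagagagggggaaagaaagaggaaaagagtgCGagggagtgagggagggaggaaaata
Six5: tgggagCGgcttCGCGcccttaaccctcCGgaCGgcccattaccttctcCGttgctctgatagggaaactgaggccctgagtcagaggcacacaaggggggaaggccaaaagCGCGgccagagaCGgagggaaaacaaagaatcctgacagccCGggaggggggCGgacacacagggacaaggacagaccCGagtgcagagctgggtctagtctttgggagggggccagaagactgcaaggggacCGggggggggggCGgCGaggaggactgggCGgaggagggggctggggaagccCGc
Eya3: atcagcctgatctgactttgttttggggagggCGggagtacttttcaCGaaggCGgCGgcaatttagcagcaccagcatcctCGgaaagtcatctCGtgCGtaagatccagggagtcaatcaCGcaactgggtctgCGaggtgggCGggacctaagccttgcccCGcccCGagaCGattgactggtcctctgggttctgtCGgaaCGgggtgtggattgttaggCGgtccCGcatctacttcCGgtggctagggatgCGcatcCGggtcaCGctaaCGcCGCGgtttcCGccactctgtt
The Six4, Six5 and Eya3 windows held 16, 17 and 25 CG dinucleotides, against a median of 7 over all 32851 promoter windows. Fewer were held by 67.0%, 68.6% and 81.6% of all windows, so such numbers are common. The other Six4 window held 15. The silent or nearly silent genes were above that median too, with 37 in the Six2 window, 14 in the Six3 window and 28 and 36 in the Eya4 windows. The core of the MEF3 site, a sequence bound by Six-family proteins in muscle genes, was searched as TCAGGTT on both strands. It was present in 4.07% of all windows and, among the 6 genes, only in the Six4 window printed above. There it lies on the strand opposite to the gene, and its first base in the printed sequence is at position 154, 97 bases before the start.

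Levels are given in CPM, counts scaled to the total of each library. Library totals ran from 18001563 to 22706882 counts in iMLL-ENL total, 10921521 to 20069503 in B220 HIGH, 13441696 to 16626820 in B220 LOW and 18227843 to 19607722 in wt LSK. Of the reference genes, Kit and Ly6a, the genes of the wt LSK sort, were lower in iMLL-ENL total (log2 fold changes -3.09 and -4.71), as was Kmt2a (-1.39), while Mllt1, which encodes ENL, and Ptprc, which encodes B220, were not called (-0.20 and 0.35). The 10 stem cell markers listed summed to 288 to 522 CPM in iMLL-ENL total and 3755 to 4287 CPM in wt LSK. The 10 neutrophil markers summed to 1279 to 12708 CPM in iMLL-ENL total and 24.7 to 166 CPM in wt LSK. In B220 HIGH the 9 B lineage markers summed to 8.79, 83.1 and 13.9 CPM in replicates 1, 2 and 3. Replicate 2 had 7 of the 9 at 1 CPM or more. The sums were 44.9 to 212 CPM in wt LSK and 7.20 to 14.9 CPM in B220 LOW, where Pax5, Igll1 and Blk were at 0 counts in all 3 libraries. In these bulk samples, fewer cells that express a gene and less of its RNA per cell cannot be told apart.

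Leukemic cells of total marrow were first set against normal LSK cells. Of the 8 genes, 5 passed the filter on low counts, and by edgeR's quasi-likelihood test 2 were lower and 1 higher at an adjusted p under 0.05. Over all 13811 genes tested, 30.6% were called by the same rule, 15.1% lower and 15.5% higher, and 41.3% had an unadjusted p under 0.05, so the count of called members was not read as a property of the families. Libraries of the groups did not overlap, with iMLL-ENL total lower, in 29.5% of the genes tested and, with it higher, in 19% of them. The sort itself separates these groups, and leukemia, knock-in, doxycycline and cell type cannot be told apart in this comparison.

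**Figure D1:**
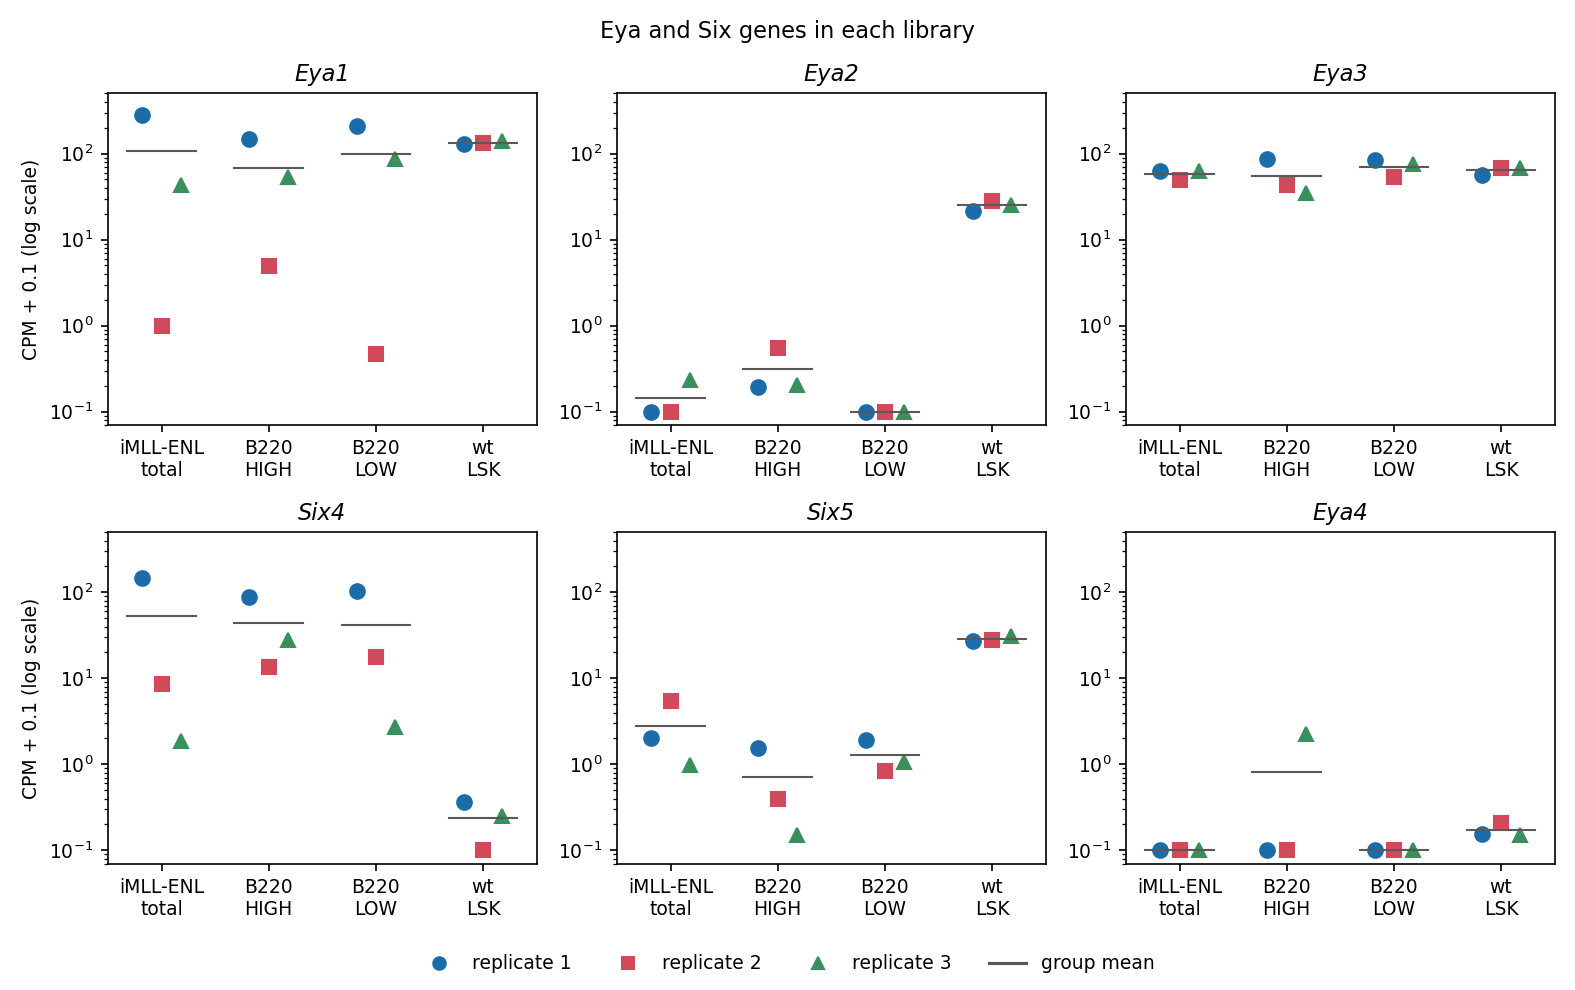
CPM (plus 0.1, log scale) of 6 Eya and Six-family genes in each library, by group, with the replicate number of the labels as symbol and colour and the group mean as a line. Eya2 and Six5 stand high only in wt LSK and Six4 only in leukemic libraries. Eya3 spans 34.8 to 87.3 CPM over all libraries, and Eya1 spreads from 0.372 to 280 CPM among leukemic libraries.

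Eya1 encodes a coactivator needed for ear, kidney and muscle progenitors (NCBI gene 14048, GRCm38 chromosome 1, 14168953 to 14311035). Its level was 280, 0.889 and 43.6 CPM in replicates 1, 2 and 3 of iMLL-ENL total, against 130, 133 and 140 CPM in wt LSK. One leukemic library thus lay above, and the others below, the narrow wt LSK range. The largest of the 3 leukemic levels was 315 times the smallest, and in wt LSK the SD was 5.15 CPM about a mean of 134 CPM (n = 3). The log2 fold change was -0.19 (SE 1.36, edgeR adjusted p = 0.933), with a 95% interval of -3.42 to 3.05 that leaves room for large changes either way. It was -2.39 without iMLL-ENL total replicate 1, 0.40 without replicate 2 and 0.13 without replicate 3, with no call.

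In the sorted leukemic fractions Eya1 took the same order by replicate number. The libraries numbered 1 had 149 CPM in B220 HIGH and 210 CPM in B220 LOW. Those numbered 2 had 4.88 CPM in B220 HIGH and 0.372 CPM in B220 LOW, and those numbered 3 had 52.9 CPM in B220 HIGH and 86.0 CPM in B220 LOW. Over the 3 leukemic groups, Eya1 thus ran from 149 to 280 CPM at number 1, from 43.6 to 86.0 CPM at number 3 and from 0.372 to 4.88 CPM at number 2, with no overlap between numbers. How many of all genes show such an order was not counted, so it was not read as particular to Eya1. What a replicate number stands for is not in the labels, and same-numbered leukemic libraries may share an animal. Across all expressed genes, same-numbered leukemic libraries deviated together from their group means in every pair of leukemic groups. Correlations were 0.134 to 0.490, against at most 0.115 for differently numbered leukemic libraries. Deviations from a mean of 3 libraries balance out within each gene, so higher same-numbered values by themselves lower the others.

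Eya2 encodes a second coactivator of the family (NCBI gene 14049, chromosome 2, 165595028 to 165771727). It had 0, 0 and 3 counts in iMLL-ENL total, against 401, 508 and 496 counts in wt LSK, where it averaged 24.9 ± 3.18 CPM (SD, n = 3). Every leukemic library was thus far below every wt LSK library. The ratio of the group's summed counts over its summed library totals, iMLL-ENL total over wt LSK, was 0.00194 with a 95% counting interval of 0.000399 to 0.00567 (exact binomial). Eya2 fell by edgeR's test (adjusted p = 0.000133), and its adjusted p was at most 0.00175 in every alternative run. The sorted fractions, counted in another table, were low too. Eya2 had 1, 9 and 2 counts in B220 HIGH and 0 in each B220 LOW library, where 3 counts over the group would be 0.0662 CPM.

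Eya3, the most widely expressed Eya gene (NCBI gene 14050, chromosome 4, 132639025 to 132724765), was at 63.0, 49.4 and 63.3 CPM in iMLL-ENL total, against 56.3, 67.5 and 68.0 CPM in wt LSK. The groups overlapped. Its log2 fold change was 0.03 (SE 0.20, edgeR adjusted p = 0.925), with a 95% interval of -0.42 to 0.48. Changes of more than about that size were outside the interval, and the sign of the estimate flipped with another scaling. Eya4 (NCBI gene 14051, chromosome 10, 23102962 to 23350838) had 0 counts in all 3 iMLL-ENL total libraries and 1, 2 and 1 counts in wt LSK, too few to test.

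Per kilobase of the gene width in the tables, a scale on which genes can be compared, the makeup of the Eya family differed between libraries. Eya1 gave 83.9%, 2.06% and 44.5% of the summed Eya level in iMLL-ENL total replicates 1, 2 and 3, against 56.5% to 61.1% in wt LSK. Eya2 gave at most 0.217% in iMLL-ENL total, against 16.3% to 19.0% in wt LSK. Eya3 made up 97.9% of the sum in iMLL-ENL total replicate 2, 86.8% in B220 HIGH replicate 2, where Eya1 gave 11.5%, and 99.2% in B220 LOW replicate 2, against 22.6% to 24.4% in wt LSK. The summed Eya level was 75.1, 9.70 and 22.0 CPM per kilobase in iMLL-ENL total, against 47.9, 53.2 and 53.8 in wt LSK, so the groups overlapped in the sum.

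**Figure D2:**
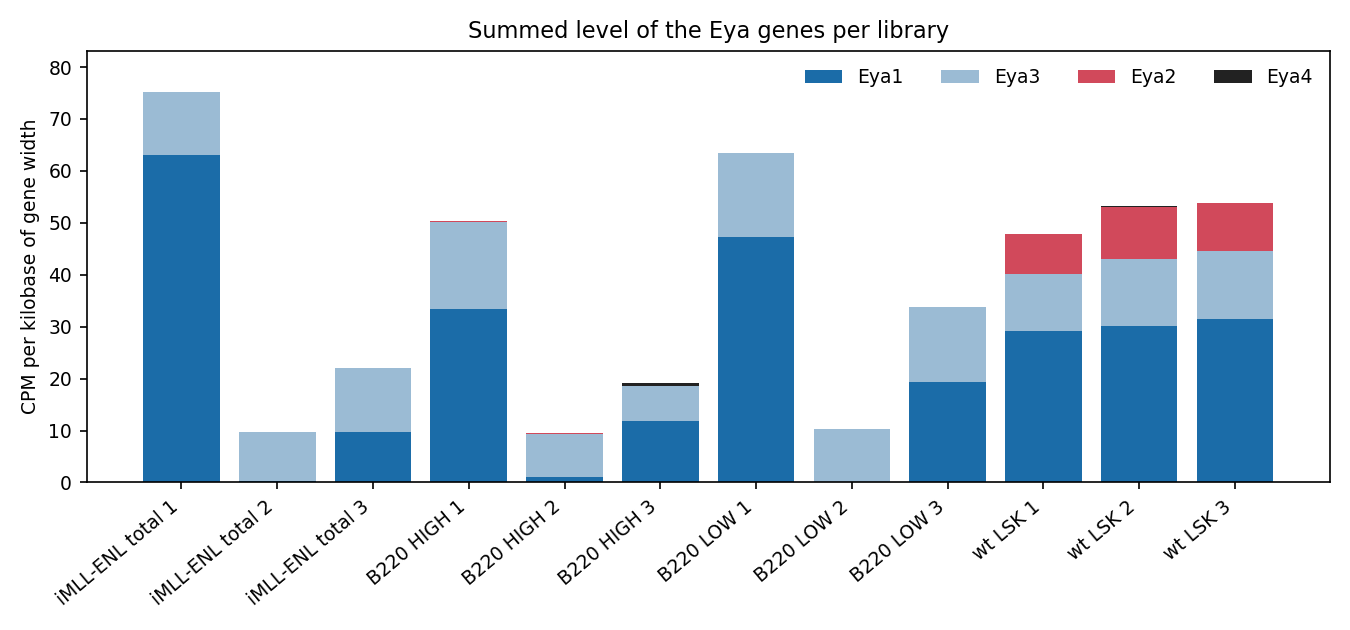
Summed level of the 4 Eya genes per library in CPM per kilobase of gene width, stacked by gene. Eya2 is visible only in wt LSK, where Eya1 takes 56.5% to 61.1%, and Eya3 takes 97.9%, 86.8% and 99.2% in the libraries numbered 2 of iMLL-ENL total, B220 HIGH and B220 LOW.

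Among the Six-family genes, Six4 encodes a homeodomain factor of muscle, kidney and sensory progenitors (NCBI gene 20474, chromosome 12, 73099609 to 73114031). Its level was 148, 8.50 and 1.76 CPM in iMLL-ENL total, from 3194, 153 and 40 counts, against 5, 0 and 3 counts in wt LSK, at most 0.269 CPM. Every leukemic library lay above every wt LSK library, while the leukemic libraries differed from each other by 84.0 times. Summed counts over summed library totals were 384 times higher in iMLL-ENL total (95% counting interval 195 to 889), and replicate 1 held most of them. That interval covers counting error only and leaves out the spread between libraries. Six4 rose by edgeR's test, with a log2 fold change of 8.59 (SE 2.04, adjusted p = 0.0184). It rose by 5.26 (adjusted p = 0.0105) when iMLL-ENL total replicate 1 was left out. The call was lost without wt LSK replicate 3 (adjusted p = 0.0859), with no filter on low counts (0.0866) and with limma-voom (0.177), and a minimum count of 50 removed the gene from the test.

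In the annotation, the Six4 span overlaps Mnat1, which encodes a subunit of the CDK-activating kinase, and the libraries do not keep strand. Mnat1 had 36.4 ± 11.6 CPM in iMLL-ENL total and 40.1 ± 4.25 CPM in wt LSK (SD, n = 3 each, edgeR adjusted p = 0.984). In wt LSK its 666, 807 and 788 counts stood beside 5, 0 and 3 counts of Six4. The next protein-coding gene on the higher-coordinate side, Trmt5, had 54.3 ± 17.4 CPM in iMLL-ENL total and 48.7 ± 5.31 CPM in wt LSK (adjusted p = 0.397). The flanking genes of Eya1 were silent or nearly so: Msc had 0 counts in all 12 libraries and Xkr9 had 2 counts in a single library.

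Six5 lies beside the gene of myotonic dystrophy and encodes a factor of the same subgroup as Six4 (NCBI gene 20475, chromosome 7, 19094544 to 19098549). Its level was 1.90, 5.39 and 0.881 CPM in iMLL-ENL total, against 27.3, 27.9 and 31.0 CPM in wt LSK. Every leukemic library was thus below every wt LSK library, and the wt LSK libraries were close together. Six5 fell by edgeR's test, with a log2 fold change of -3.26 (SE 0.60, adjusted p = 0.00435), and was called in every alternative run, with an adjusted p of at most 0.0238. Its last bases overlap Bhmg1 in the annotation. Six2 (NCBI gene 20472, 85662736 to 85688254) and Six3 (NCBI gene 20473, 85613608 to 85626191), which lie close to each other on chromosome 17 and act in kidney and forebrain progenitors, were not tested. Six2 had 0 counts in iMLL-ENL total and in wt LSK, and Six3 had 0 counts in iMLL-ENL total and 1 count in wt LSK.

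Per kilobase, Six4 stood at 24.7, 1.42 and 0.294 CPM in replicates 1, 2 and 3 of iMLL-ENL total and Six5 at 0.666, 1.89 and 0.309. Six4 was thus above Six5 in replicate 1 and below it in replicate 2. In replicate 3 the levels were close and rested on 40 counts of Six4 and 20 of Six5. Six4 was above Six5 in every library of the sorted fractions, at 14.8, 2.26 and 4.69 against 0.513, 0.105 and 0.0177 in B220 HIGH. B220 LOW had 17.5, 2.91 and 0.441 against 0.643, 0.261 and 0.337. In wt LSK, Six5 was the highest of the 4 Six-family genes per kilobase, at 10.1 ± 0.702 CPM per kilobase (SD, n = 3), with Six4 at 0.0234 ± 0.0224.

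**Figure D3:**
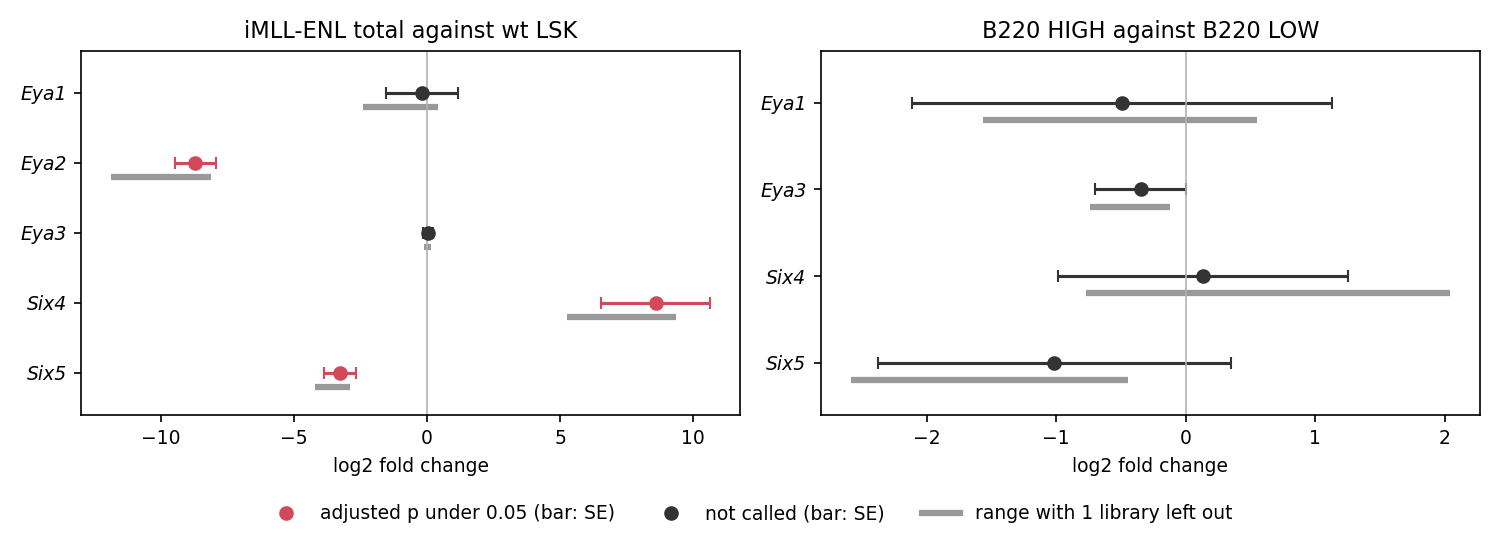
Log2 fold changes (first-named over second-named group of each title) of the Eya and Six-family genes that passed the filter, with SE, and below each the range of estimates when 1 library is left out. Eya2, Six4 and Six5 were called in iMLL-ENL total against wt LSK and no gene was called in B220 HIGH against B220 LOW.

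The second comparison asked whether leukemic cells with high B220 differed from those with low B220. Of the 8 genes, 4 passed the filter. By edgeR's test, run without regard to replicate number, 0 were called, with 0 at an unadjusted p under 0.05 and 0 by DESeq2 or limma-voom. Eya2, which did not pass the filter, was the only member whose libraries did not overlap, with B220 HIGH higher, against 6.2% of the genes tested (7.22% with B220 HIGH lower). Over all 12564 genes tested, 0% were called at an adjusted p under 0.05, 7% had an unadjusted p under 0.05, and DESeq2 called 302. With the replicate number as a block, 79 genes were called in all (0.629%), none of them an Eya or Six-family gene.

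Within pairs of the same number, Eya1 and Six4 did not move one way. Eya1 was lower in B220 HIGH in pairs 1 and 3 and higher in pair 2, where 98 counts stood against 5 in B220 LOW. Its log2 fold change was -0.49 (SE 1.62, edgeR adjusted p = 0.98, 95% interval -4.36 to 3.38) and 0.29 with the replicate block (SE 0.80, adjusted p = 0.923, interval -1.77 to 2.36). Six4 had 88.7, 13.6 and 28.2 CPM in B220 HIGH, against 105, 17.5 and 2.65 CPM in B220 LOW. The groups overlapped, and only pair 3 differed widely, by 10.6 times with a counting interval of 7.82 to 14.8. That interval compares these libraries and not the conditions. The log2 fold change of Six4 was 0.13 (SE 1.12, adjusted p = 0.992, interval -2.48 to 2.75), and 0.80 with the replicate block (adjusted p = 0.764, interval -1.23 to 2.83).

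Eya3 had 87.3, 43.1 and 34.8 CPM in B220 HIGH, against 83.4, 52.8 and 75.4 CPM in B220 LOW. The groups overlapped, and the pair numbered 3 was the farthest apart. Its log2 fold change was -0.35 (SE 0.35, edgeR adjusted p = 0.912, interval -1.14 to 0.45). Six5 was near the floor in both fractions, with 16, 6 and 1 counts in B220 HIGH and 28, 10 and 16 counts in B220 LOW, lower in B220 HIGH in 3 of 3 pairs (log2 fold change -1.01, SE 1.37, adjusted p = 0.939). Eya4, otherwise at 0 in both fractions, had 43 counts in B220 HIGH replicate 3, or 2.17 CPM. Over the groups, 43 counts in B220 HIGH against 0 in B220 LOW gave a ratio with a lower 95% counting limit of 9.97, which rests on this library alone. Six2 had 2 counts in B220 HIGH replicate 2 and 0 in B220 LOW, and Six3 had 0 in both.

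Summed markers of other cells were set side by side in the sorted fractions. By edgeR's test, 0 of the genes tested in the lists below were called. The 7 T lineage markers summed to 30.7, 161 and 227 CPM in B220 HIGH, against 8.05, 11.5 and 9.68 CPM in B220 LOW, and 4 of the 7 were at 0 in B220 HIGH replicate 3. The 10 neutrophil markers summed to 198, 16613 and 5095 CPM in B220 HIGH, against 834, 2000 and 3719 CPM in B220 LOW, with overlap. Without overlap, the 8 monocyte and macrophage markers summed to 1327 to 6078 CPM in B220 HIGH and 806 to 1269 CPM in B220 LOW, and the 10 stem cell markers to 447 to 515 CPM in B220 HIGH and 193 to 309 CPM in B220 LOW. The stem cell markers did not move together. Kit was lower in B220 HIGH in each pair, at 41.8, 40.3 and 7.28 CPM, against 53.3, 61.8 and 9.56 CPM. Ly6a alone gave 285 CPM of the sum in B220 HIGH replicate 2. The 5 promyelocyte markers summed to less in B220 HIGH, at 455 to 1351 CPM, against 1599 to 7087 CPM in B220 LOW. Among all single genes tested, 6.2% did not overlap with B220 HIGH higher and 7.22% with B220 HIGH lower. The part of these cells in the levels of Six4 and Eya4 was not tested.

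Across the 4 groups, the order of group means was set by few libraries. Six4 averaged 52.8 ± 82.5 CPM in iMLL-ENL total, 43.5 ± 39.9 in B220 HIGH, 41.7 ± 55.3 in B220 LOW and 0.141 ± 0.135 in wt LSK (SD, n = 3 each). Only the step to wt LSK was without overlap, and the sorted fractions, counted in a table of their own, were not tested against the other groups. Six5 averaged 2.72 ± 2.36 CPM in iMLL-ENL total, 0.605 ± 0.755 in B220 HIGH, 1.18 ± 0.576 in B220 LOW and 28.7 in wt LSK (27.3 to 31.0), with overlap among the leukemic groups. Eya1 averaged 108 ± 150 CPM in iMLL-ENL total, 68.8 ± 73.1 in B220 HIGH, 98.8 ± 105 in B220 LOW and 134 ± 5.15 in wt LSK, with overlap at each step.

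**Figure D4:**
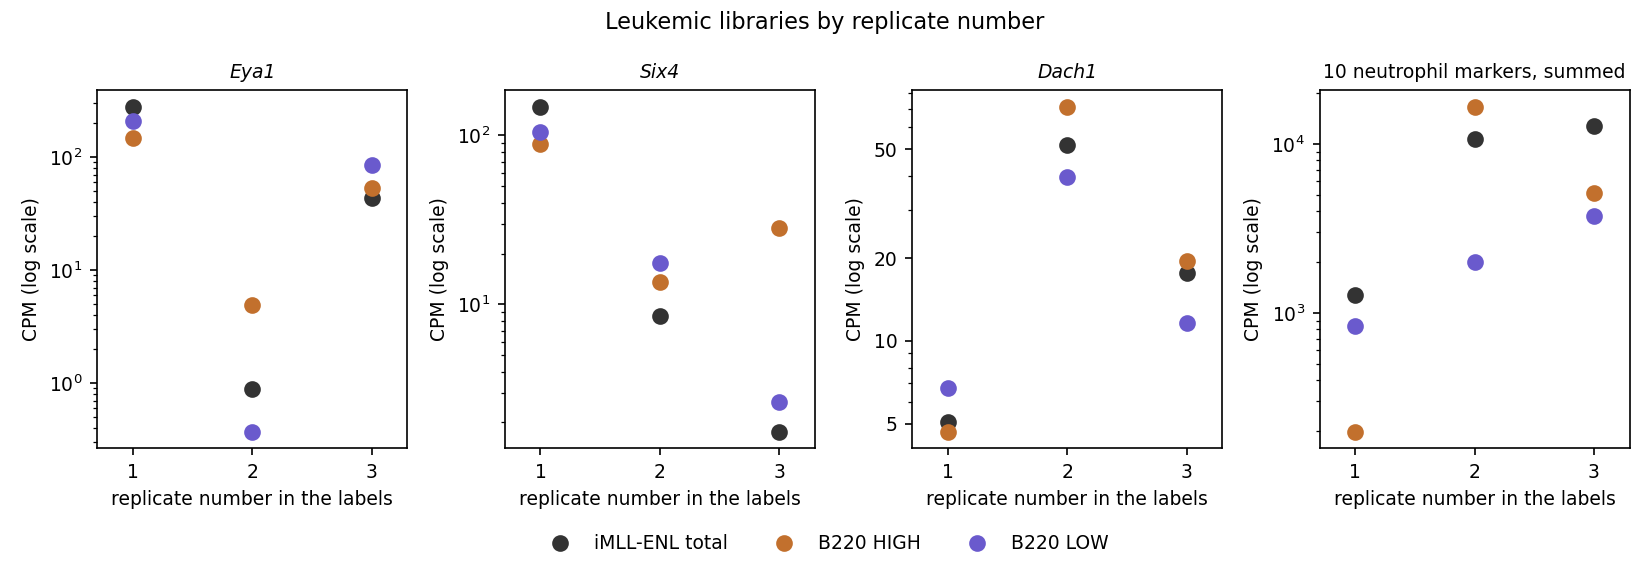
CPM (log scale) of Eya1, Six4 and Dach1 and the summed CPM of 10 neutrophil markers in the 9 leukemic libraries, by the replicate number of the labels, with the group as colour. Libraries numbered 1 are highest for Eya1 and Six4 and lowest for Dach1 and the neutrophil markers in all 3 leukemic groups.

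The libraries numbered 1 were the highest for Six4 as well as Eya1, at 88.7 to 148 CPM over the 3 leukemic groups, against 8.50 to 17.5 CPM at number 2 and 1.76 to 28.2 CPM at number 3. Six4 and Eya1 did not follow each other further: at number 2 Six4 was present with Eya1 near 0, and in B220 LOW and iMLL-ENL total Six4 was lowest at number 3. Meis1, a Hox cofactor gene, was highest at number 1 too, at 200 to 282 CPM, against 134 to 154 CPM at number 2 and 87.8 to 129 CPM at number 3. So was Kmt2a, at 510 to 566 CPM, against 307 to 324 CPM at number 2 and 219 to 494 CPM at number 3. Hoxa9, a central MLL target, had 106 to 176 CPM at number 1, 143 to 237 CPM at number 2 and 13.0 to 89.4 CPM at number 3. The neutrophil markers summed to 198 to 1279 CPM at number 1, against 2000 to 16613 CPM at number 2 and 3719 to 12708 CPM at number 3. Their part in the levels of Eya1 and Six4 was not tested, and the share of all genes that were highest at number 1 was not counted.

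Of the partner genes, Dach1 showed the reverse order of Eya1. By replicate number, this corepressor gene stood at 5.05, 51.9 and 17.7 CPM in iMLL-ENL total, 4.67, 71.4 and 19.6 CPM in B220 HIGH and 6.74, 39.4 and 11.6 CPM in B220 LOW. In each leukemic group it was thus lowest at number 1 and highest at number 2, an order whose share among all genes was not counted. The groups may share animals, so the agreement between them was not read as recurrence. In wt LSK it had 84.3, 70.4 and 122 CPM, above every iMLL-ENL total library, but was not called (log2 fold change -1.74, SE 0.71, edgeR adjusted p = 0.105).

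The network list held 29 partner, corepressor and target genes, of which 17 passed the filter in iMLL-ENL total against wt LSK. Of these, 3 were higher, 5 lower and 9 not called by edgeR's test, with a median log2 change of -0.39. Over all genes tested, 15.5% were higher, 15.1% lower and 30.6% called in all, with a median of 0.05. Pax8, a paired-box factor gene of thyroid and kidney, stood at 50.1, 36.5 and 40.6 CPM in iMLL-ENL total, against 0.322, 0.165 and 0.153 CPM in wt LSK. It rose by 7.74 (SE 0.42, adjusted p = 1.43e-05), evenly over the iMLL-ENL total libraries, unlike Six4. In the sorted fractions Pax8 averaged 12.9 ± 5.08 CPM in B220 HIGH and 22.7 ± 17.5 CPM in B220 LOW (SD, n = 3 each). Pax5, the B cell factor gene, was not called (log2 fold change -2.03, SE 1.08, adjusted p = 0.195).

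H2ax, whose histone product is a substrate of the Eya phosphatase, rose by 1.27 (SE 0.25, edgeR adjusted p = 0.00607). Gnai2, which encodes a G protein alpha subunit, rose by 1.38 (SE 0.30, adjusted p = 0.01). Slc12a2, a cotransporter gene known as a target of Six-family factors in mouse embryos, fell to 0.185, 4.11 and 0.264 CPM in iMLL-ENL total, against 59.8, 39.4 and 57.5 CPM in wt LSK (log2 fold change -5.00, SE 1.06, adjusted p = 0.00977). Of the Groucho corepressor genes, Tle1 fell by 1.25 (SE 0.26, adjusted p = 0.00737) and Tle2 fell by 4.06 (SE 0.44, adjusted p = 0.000377). Tle3 (log2 fold change 0.56, adjusted p = 0.215), Tle4 (-0.26, adjusted p = 0.432), Tle5 and Tle6 were not called. Tle2 and Tle6 overlap each other in the annotation, so their counts are uncertain. Dach2, the second Dach gene, had 1 count over iMLL-ENL total and 0.933 to 4.74 CPM in wt LSK and was called lower (adjusted p = 0.0042). Gnaz, whose span overlaps Rsph14, was also lower (adjusted p = 0.0385). Gnai2 and Gnaz were chosen for naming after their values were seen. In B220 HIGH against B220 LOW, 11 genes of the list passed the filter, and 0 were called by edgeR, with 0 at an unadjusted p under 0.05.

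**Figure D5:**
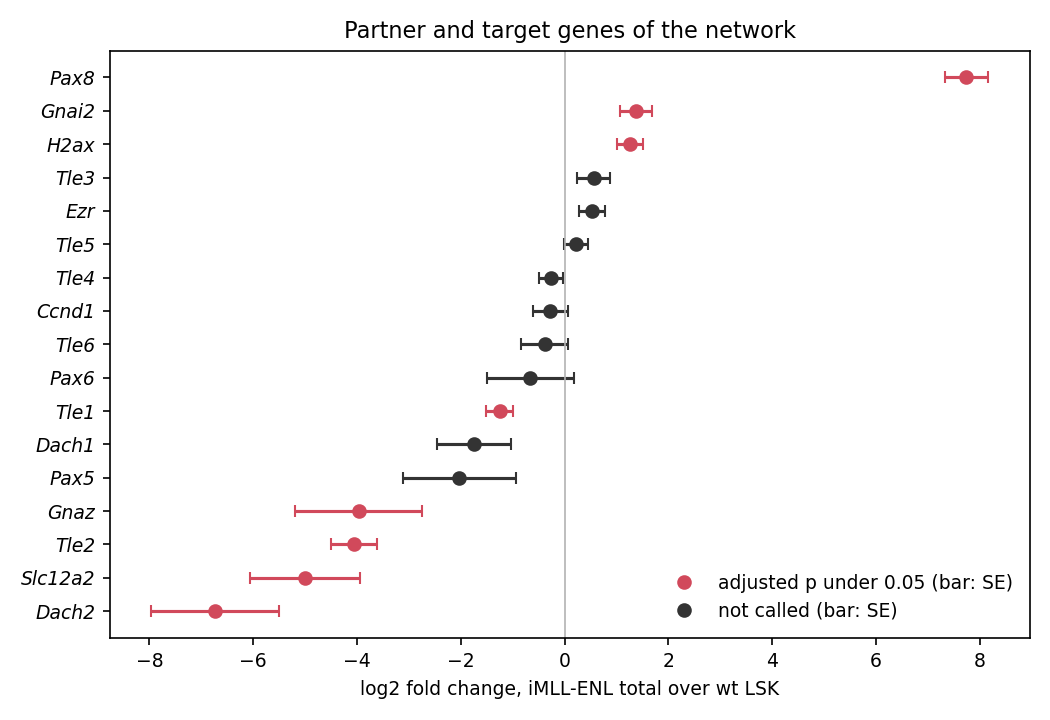
Log2 fold changes with SE, iMLL-ENL total over wt LSK, of the 17 partner and target genes that passed the filter. Pax8 stands apart on the side of higher levels, and Dach2, Slc12a2, Tle2, Gnaz and Tle1 were called lower.

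Genes with the most similar profile were found for the 4 members that spanned at least 3 log2 units, by the root mean square difference of log2(CPM + 1) over 12 libraries after centring, among 13151 genes. Closest to Eya1 was Myef2, a DNA-binding repressor gene, at 1.12 log2 units. It stood at 70.5, 1.94 and 49.9 CPM in iMLL-ENL total, 55.1, 29.7 and 35.3 in B220 HIGH and 65.3, 0.372 and 84.9 in B220 LOW, low with Eya1 in 2 of the 3 libraries numbered 2. Scml2, a Polycomb group gene, followed at 1.29, with at most 0.0744 CPM in all 3 libraries numbered 2, and Slc24a5, which overlaps Myef2, at 1.31. Closest to Six4 were Arntl2, a circadian factor gene, at 0.965, and Aspa, the aspartoacylase gene, at 1.26. Arntl2 stood at 22.8, 6.78 and 1.10 CPM in iMLL-ENL total, 49.4, 5.78 and 2.68 in B220 HIGH, 43.6, 6.10 and 1.68 in B220 LOW and at most 0.165 in wt LSK.

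The profiles nearest to Eya2 were those of Prex2, a Rac exchange factor gene, Sgce, a sarcoglycan gene, and St6galnac3, a sialyltransferase gene, at 0.197, 0.208 and 0.212. Like Eya2 they had 21.2 to 38.0 CPM in wt LSK and at most 0.847 CPM in a leukemic library. Near to Six5 were Camk2a, at 0.381, and Ddx60, at 0.475. As 30.6% of all genes tested were called between iMLL-ENL total and wt LSK, this likeness was not read as particular to these genes.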

How the data were processed

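Counts of reads per NCBI gene ID were deposited in 2 tables of 24028 genes, with iMLL-ENL total and wt LSK in one and the B220 fractions in the other, from unstranded NuGen Ovation libraries per the labels' protocols. The deposited CPM tables hold a signal, the counts divided by effective library sizes within each table, which was checked against the counts and served only as an alternative. The deposited gene width in bases gave levels per kilobase. The submitters' processing notes name edgeR, GRCm38 and mm10. No aligner or counter is named in these sources. RefSeq annotation of GRCm38 gave a symbol to 23968 IDs.

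Tests were run within each table with edgeR 4.0.16 in R 4.3.3 (quasi-likelihood F test, robust, TMM, filterByExpr with a minimum count of 10, two-sided, Benjamini-Hochberg over all genes tested, calls under 0.05), and tested on simulated data. Alternatives were DESeq2 1.42.0, limma-voom 3.58.1, other filters and scalings, a fit of all 12 libraries, a replicate block and leaving out each library. The SE printed with an edgeR log2 change was derived, as the absolute change over the square root of the F statistic. Intervals of log2 changes use this SE and the fit's degrees of freedom. Counting intervals (95%) and the floor of 3 counts cover counting error only.

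The members, gene lists and tests were chosen with earlier results of these data known. Named genes were the 8 members, a few fixed partners and reference genes, network genes called (the 6 of smallest p per comparison), flanking genes of Eya1 and Six4 and the 3 nearest profiles per member. Other Six-family genes are not analysed here, and a few genes within this rule are not reported.

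The labels number replicates 1 to 3 in each group. For B220 HIGH and B220 LOW, deviations of same-numbered libraries from group means were correlated, in log2(CPM + 1) over 13794 genes. The values were 0.443, 0.213 and 0.328, each over 0.1. These libraries were therefore set side by side as pairs and joined in the replicate block, an alternative. The main test of B220 HIGH against B220 LOW did not use the pairing. The pairing rests on this correlation, as no label states it. Between iMLL-ENL total and B220 HIGH the values were 0.490, 0.221 and 0.161, and between iMLL-ENL total and B220 LOW 0.400, 0.307 and 0.134. Differently numbered libraries reached 0.0767 between B220 HIGH and B220 LOW. They reached 0.115 between iMLL-ENL total and B220 HIGH, and 0.0904 between iMLL-ENL total and B220 LOW. Deviations from a mean of 3 libraries balance out, so the same-numbered and the other values are not independent. Replicates 2 of iMLL-ENL total and wt LSK, of different genotype, correlated at 0.222. Replicate 1 of iMLL-ENL total and replicate 3 of wt LSK, which differ in number too, correlated at 0.180. A value over 0.1 thus does not by itself mark a pair.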

Additional observations from a re-analysis of the deposited data

How the results depend on the processing

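In iMLL-ENL total against wt LSK, Eya2 and Six5 were lower in all 15 alternatives, which gave log2 changes of -11.87 to -8.12 for Eya2 and -4.21 to -2.90 for Six5, so 2 members were called lower throughout. The number of members called higher was 1 (Six4) but 0 with limma-voom, 0 with no filter and 0 with a minimum count of 50, and 0 to 1 with 1 library left out. A minimum count of 50 left Six4 out of the test, and for the others the cause was not tested. The log2 change of Six4 ran from 5.26 to 9.37. Eya1 had -2.39 to 0.40 with 1 library left out, and Eya3 -0.11 to 0.15. Eya3 changed sign with RLE size factors (-0.022), DESeq2 (-0.025), no filter (-0.0070), a minimum count of 50 (-0.030) and all 12 libraries in 1 fit (-0.0088). All genes called were 4221, against 2047 for a fold change of at least 2, 2411 with all 12 libraries in 1 fit and 2636 to 4528 with 1 library left out, with the lowest counts without wt LSK replicate 3 and without wt LSK replicate 1 (2658). The same-numbered libraries of these groups did not all deviate together (0.0314, 0.222 and -0.0387), and the replicate block gave 4048 calls and the same 3 calls among the members.

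In B220 HIGH against B220 LOW, no member was called in 18 alternatives. The replicate block changed no call among the members. All genes called were 0, against 302 with DESeq2, 22 with no filter, 31 with all 12 libraries in 1 fit, 79 with the replicate block and 0 to 96 with 1 library left out (96 without B220 HIGH replicate 1). Added after the data were seen, the block without pair 1, 2 or 3 gave 292, 197 and 10. Eya1 turned to 0.29 with limma-voom, 0.29 with the replicate block, and 1.05 and 1.01 with the block without pair 1 or 3, and ran from -1.56 to 0.55 with 1 library left out. Six4 was -0.24 with the block without pair 3 and -0.77 to 2.04 with 1 library left out. Of 64 group means of the members, 63 moved by no more than their SD with TMM over all libraries or with the deposited CPM. This check is weak, as means of 0 cannot move and some SDs exceed their mean (Eya1 in iMLL-ENL total, 108 ± 150 CPM). Among the nearest profiles, 1 of 3 was shared for Eya2 and 1 of 3 for Six5 with a pseudocount of 0.25. Depth limits Eya4, Six2, Six3 and, in leukemic cells, Eya2, which rest on a few counts.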
